A study of Mus musculus with 2 samples.

Results

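The endothelial cells of mouse pancreatic islets were 60 of 1483 cell barcodes in a single-cell RNA-seq data set of dissociated islets. A cell was taken as endothelial when the insulin genes together, Gcg, Sst and Ppy each held under 1% of its transcripts, when 6 vessel genes (Pecam1, Plvap, Flt1, Kdr, Cdh5 and Esm1) summed to at least 10 transcripts, and when that sum exceeded the sum of 9 leukocyte genes. Transcripts were counted as unique molecular identifiers (UMIs), so that copies of one molecule made by PCR count once. The data came from control C57BL/6J mice, male according to the methods of the study and 8 weeks old. Islets were freed with collagenase, picked by hand and separated with trypsin and EDTA, and 10000 cells entered each of 2 RevGel-seq libraries, in which cells are coupled to barcoded beads and kept apart in a reversible gel. Both libraries were technical replicates of 1 islet preparation, so every spread and p-value below covers preparation, sampling and sequencing error and holds no difference between animals. No treatment or genotype was compared, and the comparisons are between classes of cells of the same libraries.

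Islet capillaries are dense and fenestrated, with pores closed by diaphragms that are built from the protein encoded by Plvap. Endocrine cells supply VEGF-A, whose receptors on the endothelium, encoded by Kdr, Flt1 and Nrp1, keep the capillaries in this state. In return the endothelium lays down the vascular basement membrane of the islet and passes hormones, nutrients and oxygen between endocrine cells and blood.

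Library 1 held 27 endothelial cells among 735 barcodes, which is 3.67% (95% exact binomial interval 2.43 to 5.30, counting error only). Library 2 held 33 among 748, which is 4.41% (3.06 to 6.14), and the mean of both was 4.04% ± 0.522 (SD, n = 2). The intervals overlapped. Median depth of the endothelial cells was 14738 UMIs in library 1 and 16441 in library 2, and the median number of genes seen was 4301 and 4647. The classes used for comparison were chosen by the same genes. They were beta, alpha, delta and gamma cells, named for the hormone with most UMIs at or above 1% (1300 cells, 87.7% of all). A further class held 81 hormone-low cells, with each hormone under 1%, that had at least 10 leukocyte UMIs. The remaining 42 hormone-low cells had neither set and entered no comparison. The libraries shared 0 barcodes and held 15931154 and 17440292 UMIs in all.

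The selected cells stood well clear of the minimum. In library 1 the member with fewest vessel UMIs had 139, the next had 238, and the highest hormone-low cell outside, counted as a leukocyte, had 15. In library 2 the lowest members had 186 and 225, and the highest hormone-low cell outside had 16. The gap was therefore wide on the side of the vessel genes. It was narrow on the hormone side for 1 cell of library 1, whose insulin transcripts were 0.997% of its UMIs, while the next highest member had 0.322% and the highest of library 2 had 0.250%. No doublet caller was run, and 7 cells of library 1 and 1 of library 2 had both a hormone at or above 1% and 53 to 617 vessel UMIs. They were left in the endocrine classes, in which every other cell had at most 5 vessel UMIs.

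**Figure D1:**
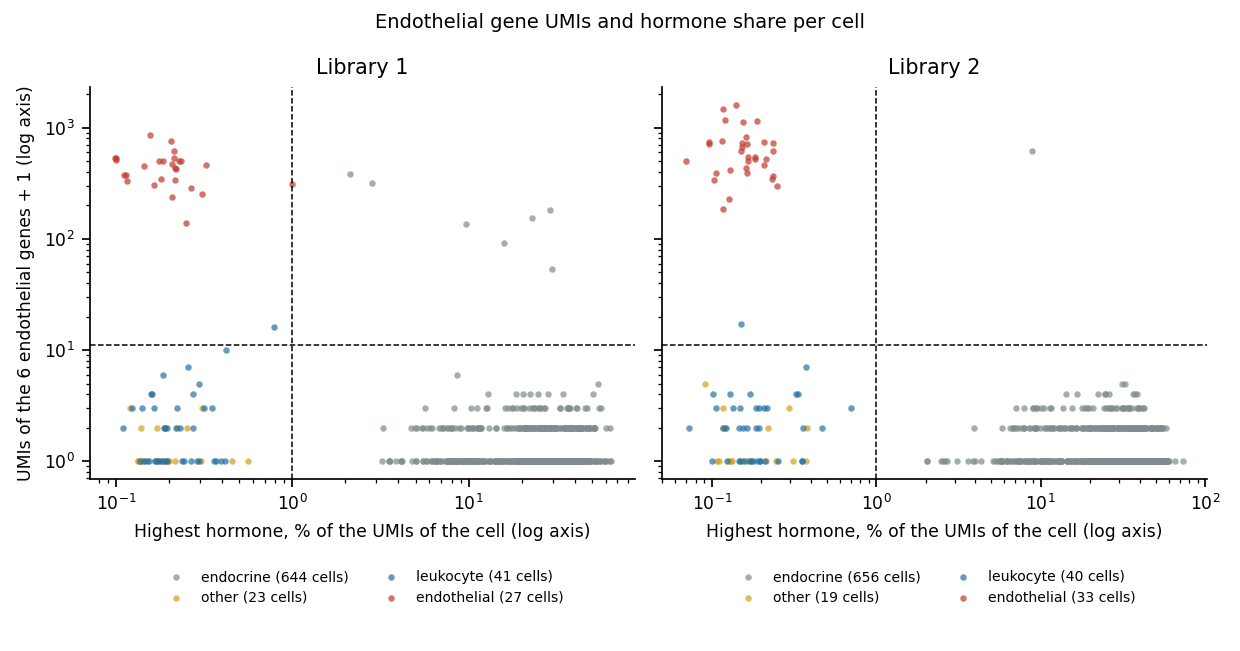
UMIs of the 6 vessel genes (vertical axis) against the largest hormone share in percent of UMIs (horizontal axis) for every cell of library 1 (left) and library 2 (right), on log axes, with the thresholds as lines and colours for the classes. The 27 and 33 endothelial cells sit at 139 UMIs or more and under 1% hormone, apart from the endocrine and leukocyte cells.

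The genes that chose the cells are given as a description only. Levels are UMIs per 1000000 of the summed counts of a class in a library, scaled by edgeR's trimmed mean of M-values (TMM) and written CPM. Since the reads come from the ends of transcripts and capture differs between genes, levels were not ranked between genes. Flt1, a VEGF receptor, was at 7269 and 7525 CPM in the endothelial sums of libraries 1 and 2, and at 2.41 to 131 CPM in the 8 endocrine sums. The 131 CPM was in the delta sum of library 1, which includes cells with 382 and 314 vessel UMIs. Flt1 was at 7.10 CPM in the delta sum of library 2. Endocrine ranges here and below include all cells with both a hormone and many vessel UMIs, which can raise their upper ends. Kdr, the main signalling receptor for VEGF-A, was at 4845 and 5008 CPM against 3.38 to 84.1. Plvap was at 3759 and 3674 CPM against 2.56 to 37.2. Esm1, which encodes the secreted proteoglycan endocan, was at 6083 and 6453 CPM against 2.88 to 104, and it was seen in 57 of the 60 cells. Pecam1, the adhesion molecule CD31, was at 1304 and 1445 CPM against 0.965 to 16.9. Its leukocyte sums, at 52.9 and 54.5 CPM, lay above those endocrine values, and leukocytes are a known second source of Pecam1. These genes and Cdh5, the cadherin of endothelial junctions, were highest in the endothelial sums because the rule chose the cells by them. Endothelial genes that the rule did not use are given below.

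Thinning each cell to 4000 UMIs removed the effect of depth on detection and left no cell out. Plvap was then seen in all 27 and all 33 endothelial cells, as it was before thinning, in 2.33% and 1.68% of endocrine cells (7.61% and 6.25% unthinned) and in none of the 41 and 40 leukocytes (2.44% and 7.50% unthinned). Median depths were 14738 and 16441 UMIs for endothelial, 18171 and 19350 for endocrine and 10511 and 11324 for leukocyte cells. Hormone transcripts were found in the endothelial sums and in the leukocyte sums, where the rule limited them to under 1% of the UMIs of a cell. Ins2 was at 1650.2 and 1157 CPM in the endothelial sums and at 1583 and 1247 CPM in the leukocyte sums. Gcg was at 808 and 602 CPM against 824 and 632. Leukocytes should lack both transcripts, so no expression of hormones in endothelial cells is read from these levels, and their source was not tested.

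Every gene was compared between the endothelial sums and the mean of the beta, alpha, delta and gamma sums, and between the endothelial and leukocyte sums, by edgeR's quasi-likelihood test on 12 sums with 6 residual degrees of freedom. The 20 genes that define any class were left out, and 14933 genes passed the filter on low counts. An SE beside a log2 fold change is its absolute value divided by the square root of the F statistic. It was thus derived from the test and was not estimated by the fit. At an adjusted p under 0.05, 3487 genes (23.4%) were higher and 4371 (29.3%) lower in endothelial than in endocrine sums. Against the leukocyte sums 2918 genes (19.5%) were higher and 2702 (18.1%) lower, and 1844 (12.3%) were higher in both contrasts. With so many calls, counts within gene lists are read against these shares. The median difference over all genes, in log2 of CPM with 10 CPM added, was -0.14 against the endocrine and 0 against the leukocyte sums. Scaling to totals without hormone genes moved the median of the fitted log2 fold changes over all genes from -0.23 to -0.44 and the share of endocrine-contrast calls that were higher from 44.4% to 36.1%, with 8265 calls in place of 7858.

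The list of genes known across endothelia held 38 genes, of which 37 passed the filter. All 37 were higher in the endothelial sums in both contrasts, with a median difference of 5.13 on the log2 scale in each, where 12.3% of all genes tested were higher in both. Since genes low in every class do not pass the filter, the count describes those that did. A gene high in the endothelial sums alone also passes, and such a gene could hardly be called lower. Counts of this list and of the lists below are therefore descriptions of their members. Among the phosphatases and receptors, Ptprb, which dephosphorylates the angiopoietin receptor, was at 2652 and 2489 CPM, against 0 to 48.0 in the endocrine and 0 and 2.54 in the leukocyte sums. The angiopoietin receptor Tek itself was at 320.0 and 239 CPM against 0 to 4.64 (log2 fold change 7.51 ± 0.33 SE, edgeR adjusted p = 5.09e-11), and its partner Tie1 was at 774 and 633 CPM against 0 to 11.4. Erg, a transcription factor that holds endothelial identity, was at 516 and 442 CPM against 0 to 2.81 (8.91 ± 0.29, edgeR adjusted p = 6.75e-13). Egfl7, a secreted vessel protein, was at 1982 and 1883 CPM against 2.65 to 26.3. In each of these genes both endothelial sums exceeded every endocrine and leukocyte sum. Cldn5, a tight-junction claudin abundant in brain endothelium, was also called higher, but its 42.0 and 5.77 CPM came from 3 of the 60 cells.

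Promoters of 4 of these genes are shown because members of this list were high together in both libraries. They are the genes with the highest endothelial levels among those considered, which had a single entry in the RefSeq promoter table (build GRCm38.p6). Genes of a chromosome that was set aside were left out of this choice, whatever their level. Each promoter runs from 250 bases before to 50 after the start. Capitals mark the letters CAGGAA or CCGGAA, cores bound by ETS factors such as ERG, on the printed strand, or their reverse complements TTCCTG and TTCCGG.
Emcn: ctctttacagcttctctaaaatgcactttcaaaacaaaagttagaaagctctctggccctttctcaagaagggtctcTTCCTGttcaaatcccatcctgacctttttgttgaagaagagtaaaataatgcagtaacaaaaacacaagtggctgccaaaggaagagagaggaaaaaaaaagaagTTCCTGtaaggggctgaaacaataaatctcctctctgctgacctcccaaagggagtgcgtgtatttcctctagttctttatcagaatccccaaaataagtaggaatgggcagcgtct
Tm4sf1: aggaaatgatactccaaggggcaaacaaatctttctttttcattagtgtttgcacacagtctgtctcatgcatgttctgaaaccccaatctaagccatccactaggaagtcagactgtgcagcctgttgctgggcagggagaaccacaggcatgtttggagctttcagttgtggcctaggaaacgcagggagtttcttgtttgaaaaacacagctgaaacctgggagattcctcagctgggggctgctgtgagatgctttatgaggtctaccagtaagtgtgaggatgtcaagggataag
Adgrl4: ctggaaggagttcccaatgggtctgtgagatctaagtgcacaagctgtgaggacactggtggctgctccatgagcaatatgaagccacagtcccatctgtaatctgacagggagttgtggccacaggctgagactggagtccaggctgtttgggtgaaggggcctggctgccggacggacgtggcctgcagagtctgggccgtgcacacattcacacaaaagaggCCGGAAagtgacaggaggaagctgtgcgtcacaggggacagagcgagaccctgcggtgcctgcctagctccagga
Robo4: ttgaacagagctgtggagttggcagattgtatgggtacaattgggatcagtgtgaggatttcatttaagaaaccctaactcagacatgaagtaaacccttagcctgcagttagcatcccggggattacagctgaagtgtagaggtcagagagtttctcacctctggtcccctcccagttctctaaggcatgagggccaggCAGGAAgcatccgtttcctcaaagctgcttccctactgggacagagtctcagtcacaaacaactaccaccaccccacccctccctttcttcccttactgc
The Emcn window, chr3:137340828-137341127 on the plus strand, held 2 matches to CAGGAA. The Tm4sf1 window, chr3:57301939-57302238 on the minus strand, held 0. The Adgrl4 window, chr3:151437632-151437931 on the plus strand, held 1 match to CCGGAA, and the Robo4 window, chr9:37401722-37402021 on the plus strand, held 1 to CAGGAA. Of the 37 genes, 20 had an entry, and CAGGAA was in 14 of them (70%), CCGGAA in 2 (10%) and either in 15 (75%). Over all 27025 genes of the table the shares were 33.4%, 16.7% and 44.7%. A match describes the letters of the window and is neither a bound site nor a cause.

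The levels behind those promoters were as follows. Emcn, a sialomucin of capillary and venous endothelium, was at 1756 and 1462 CPM against 0.645 to 22.7 in the endocrine sums. Tm4sf1, a tetraspanin-like surface protein, was at 1130.2 and 1210.1 CPM against 0.885 to 18.1. Adgrl4, an adhesion receptor, was at 1166 and 809.8 CPM against 0 to 8.26. Robo4, the endothelial member of the roundabout receptors, was at 774 and 698 CPM against 0 to 6.71. The classes did not overlap in any of the 4 genes.

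**Figure D2:**
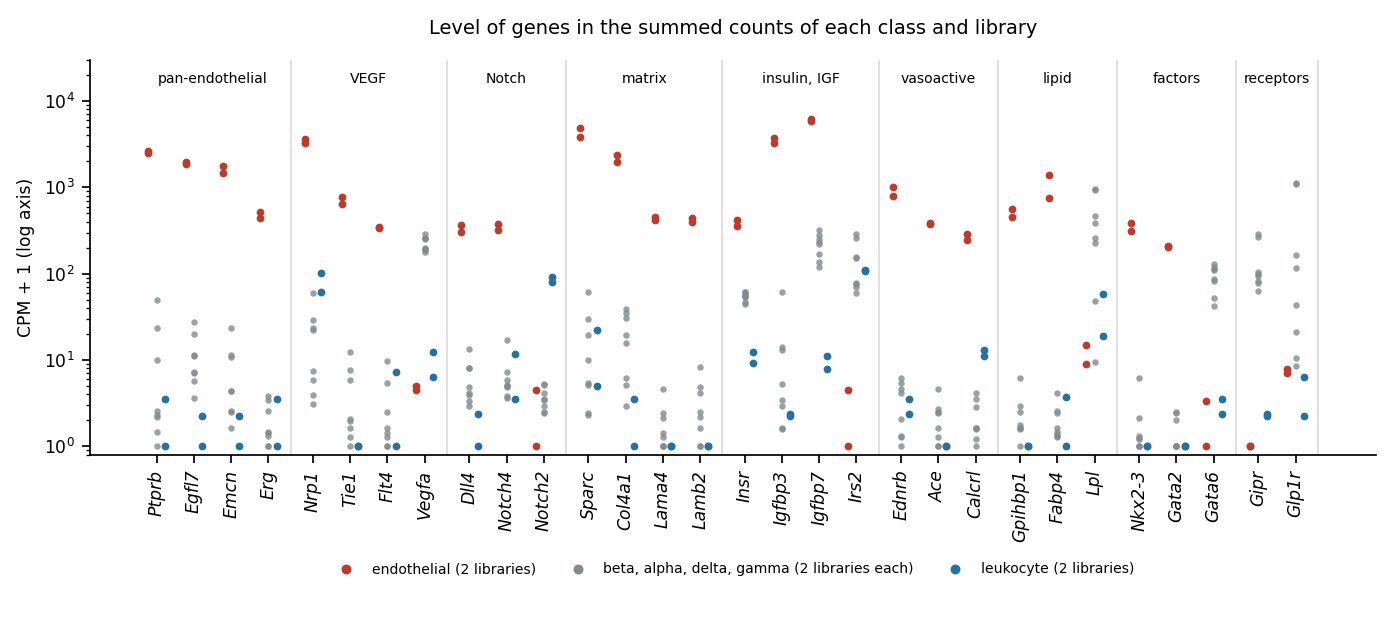
Level in CPM plus 1 (log axis) of named genes in each sum, with 1 point for each library of the endothelial, leukocyte and 4 endocrine classes. Vessel and matrix genes lie above 100 CPM in both endothelial sums, while Vegfa lies at 3.46 to 4 CPM there and at 178 to 284 CPM in the endocrine sums.

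The 10 named genes with the largest fitted change over endocrine cells were Glycam1, Enpp6, Fabp4, Aqp1, Zfp366, Lama4, Col13a1, Tril, Lrg1 and Plxnd1, of 1215 genes that passed the level and direction criteria. Plxnd1, a semaphorin receptor of vessels, was at 440.1 and 383 CPM against 0 to 3.10 (log2 fold change 9.46 ± 0.23 SE, edgeR adjusted p = 1.62e-13) and was seen in all 60 cells. Enpp6, a choline phosphodiesterase, was at 152 and 146 CPM against 0 to 0.563 and was seen in 38 cells. Col13a1, a membrane-spanning collagen, was at 480.1 and 569.8 CPM against 0 to 3.63 in 55 cells. Glycam1, Lrg1 and Aqp1 were different in kind: 3 cells each held nearly all of their UMIs, down to 91.8% for Aqp1, and they are described with those cells below.

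Against the leukocytes, the 10 named genes with the largest change all had 0 UMIs in both leukocyte sums, so their folds are lower bounds set against 3 UMIs over both sums. Podxl, a sialomucin of the luminal surface, was at 2330.3 and 1845 CPM, at least 1029-fold higher than in leukocytes. Btnl9, a butyrophilin-like gene of capillaries, was at 1984 and 1655 CPM, at least 903-fold higher. Mmrn2, a matrix protein of vessels, was at 1332 and 1418 CPM, at least 705-fold higher. The others were Tm4sf1, Sparcl1, Adgrl4, Ushbp1, Robo4, Tie1 and Depp1, with bounds from 297 to 601-fold. Depp1 was the one among the 10 with a clear endocrine level, at 34.1 to 169 CPM against 670.1 and 535 CPM in the endothelial sums.

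The 10 named genes that were lowest against endocrine cells had 0 UMIs in all 60 endothelial cells. Fold bounds here compare the mean of the endocrine sums with the endothelial limit of 3 UMIs, so single classes can lie nearer to that limit. Snap25, a SNARE protein of hormone exocytosis, was at 186 to 282 CPM in the endocrine sums, with a mean at least 107-fold above the limit. Smarca1, a chromatin remodeller, was at 54.6 to 421 CPM (at least 134-fold). Cdh1, the cadherin of epithelia, was at 81.3 to 211 CPM (at least 75.4-fold), and Cacna1d, an L-type calcium channel subunit, at 117 to 257 CPM (at least 79.1-fold). Wnt4, Smim22, Kcnmb2, Gdap1, Gipr and Prxl2a completed the 10, with bounds from 54.5 to 126-fold. All 20 general endocrine marker genes tested were lower, and their summed level was 672 and 651 CPM in the endothelial sums, 778 and 702 CPM in the leukocyte sums and 54176 to 97950.4 CPM in the endocrine sums.

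The VEGF and angiopoietin list showed receptors on the endothelial side and VEGF-A on the endocrine side. Of its 16 genes, 11 passed the filter, 8 were higher and 2 lower than in endocrine sums, and 8 were higher than in leukocyte sums. Nrp1, a co-receptor of VEGF-A, was at 3674 and 3303 CPM against 2.06 to 59.3 in endocrine and 61.0 and 101 in leukocyte sums (log2 fold change over endocrine 7.91 ± 0.39 SE, edgeR adjusted p = 7.34e-11). Flt4, the receptor for VEGF-C that is known from lymphatic and fenestrated endothelium, was at 350.0 and 340.3 CPM against 0 to 8.77 and was seen in all 60 cells. Vegfa was at 4 and 3.46 CPM against 178 to 284 in the endocrine sums (-5.90 ± 0.27, edgeR adjusted p = 3.33e-11), with all endocrine sums above both endothelial sums. Pgf, a ligand of FLT1, was also lower, at 2.00 and 0 CPM against 38.7 to 140.4. Vegfb was at 10 and 18.5 CPM against 17.2 to 42.5, with overlapping sums and no call (adjusted p = 0.0705 by edgeR), though it was called lower with scaling to totals without hormone genes (0.0193) and without the 3 Glycam1 cells described below (0.00998). Angpt2, the angiopoietin made by endothelium, was at 66.0 and 96.9 CPM against 1.70 to 11.6, in 30 cells.

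Notch genes, through which endothelial cells set arterial and sprouting states among themselves, were higher in 12 of 13 tested against endocrine sums. Against leukocyte sums 9 of 13 were higher, beside 23.4% and 19.5% of all genes in these contrasts. The median difference over endocrine sums was 2.96. The ligand Dll4 was at 302 and 363 CPM against 1.92 to 12.4 and was seen in 58 cells. The receptor Notch4 was at 374 and 323 CPM against 2.63 to 16.0, and Notch1 at 68.0 and 64.6 CPM against 2.95 to 12.9. The target Hey2 was at 150.0 and 117 CPM against 0 to 2.58 (log2 fold change 8.20 ± 0.37 SE, edgeR adjusted p = 6.86e-11). Notch2 was the exception, at 0 and 3.46 CPM against 1.45 to 4.32 in endocrine and 78.6 and 91.3 in leukocyte sums, where the call was lower.

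Arterial genes were higher than in endocrine sums in all 12 tested of 16 listed and venous genes in all 9 tested of 12. Tip-cell genes were higher in 10 of 11, beside the 23.4% of all genes. Medians of these lists, in that order, were 3.24, 2.22 and 3.16 on the log2 scale. Since genes could pass the filter through the endothelial sums alone, the counts are a description. Efnb2, the arterial ephrin, was at 372 and 426 CPM against 0.965 to 13.9 and was seen in 54 cells. Unc5b, a netrin receptor, was at 168 and 143 CPM against 0.750 to 12.3. Ephb4, the receptor paired with ephrin-B2 and known from veins, was at 96.0 and 78.4 CPM against 0 to 1.13 in 45 cells. Other venous genes rested on few cells: Nr2f2, the transcription factor of vein identity, was seen in 7 cells, Vwf in 3 and Vcam1 in 4. Without the 3 Glycam1 cells described below, Nr2f2 and Vcam1 were not called (adjusted p = 0.536 and 0.679 by edgeR), nor were they without the endothelial sum of library 2 (0.663 and 0.533). Apln, the tip-cell ligand apelin, was at 52.0 and 93.4 CPM in 11 cells. Pgf was the tip-cell gene called lower.

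Genes of caveolae and fenestrae were higher in 12 of 13 tested against endocrine sums (median 4.19). Against leukocyte sums 11 were higher, beside 23.4% and 19.5% of all genes in these contrasts. Cav1, the coat protein of caveolae, was at 370.1 and 288 CPM against 0 to 4.13, and at least 162-fold above the leukocyte sums, which had 0 UMIs. Cavin1, its partner, was at 422 and 414 CPM against 1.93 to 6.45 (log2 fold change 7.03 ± 0.15 SE, edgeR adjusted p = 5.69e-14). Ehd4, which shapes membrane necks, was at 2402 and 2151 CPM against 17.2 to 41.3. Pacsin3 had 2.00 and 1.15 CPM against 0.484 to 9.03 and no call.

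Junction genes split by kind. Of 17 tested, 14 were higher and 3 lower than in endocrine sums, and the median difference was 1.51. Over all genes 23.4% were higher and 29.3% lower, a share that the 3 lower genes do not exceed. Esam, an endothelial adhesion molecule, was at 866 and 675 CPM against 7.67 to 19.6, and Jam2 at 270.0 and 188 CPM against 4.88 to 41.8. The lower genes encode parts of epithelial junctions. Cgn, or cingulin, had 0 UMIs in endothelial cells and 49.8 to 161 CPM in endocrine sums, whose mean was at least 45.5-fold above the endothelial limit. Pard3, a polarity protein, was at 4 and 4.61 CPM against 23 to 159 (-3.90 ± 0.41, edgeR adjusted p = 7.59e-07), and occludin (Ocln) had 0 UMIs against 1.28 to 18.8 CPM, a call that was lost without the endothelial sum of library 2 (adjusted p = 0.0633 by edgeR).

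Of 26 basement membrane genes listed, 25 passed the filter and 23 were higher than in endocrine sums and 23 higher than in leukocyte sums, with medians of 4.56 and 5.05. Col4a1, a type IV collagen chain, was at 2348 and 1993 CPM against 1.93 to 38 (log2 fold change 7.27 ± 0.23 SE, edgeR adjusted p = 5.78e-13). Its head-to-head neighbour Col4a2, whose annotation overlaps it on the other strand, was at 1182 and 1074 CPM against 0.960 to 12.9. The laminin chains were all higher: Lama4 was at 450.1 and 423 CPM against 0 to 3.61, Lama5 at 220.0 and 239.9 against 0.590 to 16.4 and Lamb1 at 474 and 491 against 0.295 to 6.19. Sparc, a collagen-binding protein, was at 4835 and 3883 CPM against 1.29 to 60.4. Itga1, a collagen receptor subunit, was at 716 and 619 CPM against 0 to 12.9. The integrin genes Itgav, at 28.0 and 12.7 CPM, and Itga3, at 14.0 and 25.4 CPM, overlapped the endocrine range and were not called.

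**Figure D3:**
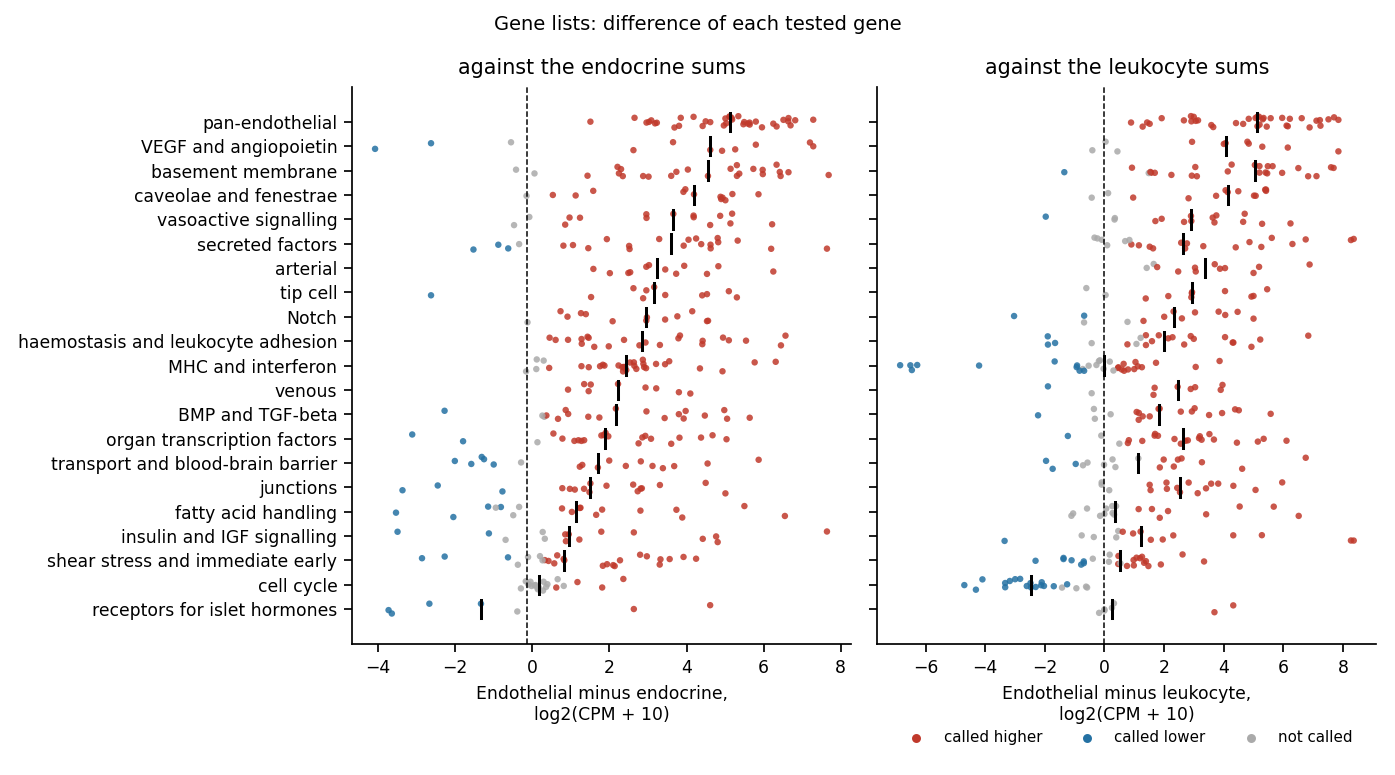
Difference between endothelial and endocrine sums (left) and between endothelial and leukocyte sums (right), in log2 of CPM with 10 CPM added, with 1 point for each tested gene of a list, coloured by its call, a black bar at the median of the list and a dashed line at the median of all genes tested (-0.14 and 0). The list of genes known across endothelia has its median at 5.13 in both panels, while the receptors for islet hormones have theirs at -1.33 on the left and the cell cycle genes at -2.46 on the right.

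Transcripts of the insulin receptor were higher in endothelial than in endocrine sums. Insr was at 356 and 414 CPM in endothelial sums, 43.8 to 60.9 in endocrine and 8.13 and 11.4 in leukocyte sums (log2 fold change over endocrine 2.86 ± 0.10 SE, edgeR adjusted p = 2.03e-12; over leukocytes 5.29, edgeR adjusted p = 2.44e-10). It was seen in 58 of the 60 cells. Igf1r was at 44.0 and 126 CPM against 79.9 to 184, with overlapping sums and no call. It was called lower with scaling to totals without hormone genes (adjusted p = 0.0203 by edgeR), with no filter (0.00442), without the 3 Glycam1 cells described below (-0.89, 0.00220) and without the endothelial sum of library 2 (-1.57, 6.11e-04). Irs2, the adaptor downstream of both receptors, was at 0 and 3.46 CPM against 59.0 to 290.1 (-5.74 ± 0.36, edgeR adjusted p = 1.44e-09). Foxo1, the transcription factor held back by insulin signalling, was at 172 and 253 CPM against 83.5 to 132. Of the 15 genes of the insulin and IGF list that were tested, 10 were higher and 2 lower than in endocrine sums.

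The IGF binding proteins of that list had high levels in endothelial sums. Igfbp7 was at 5915 and 6163 CPM against 117 to 324, in all 60 cells. Igfbp3 was at 3726 and 3247 CPM against 0.590 to 60.9, in 57 cells (log2 fold change 8.90 ± 0.47 SE, edgeR adjusted p = 1.47e-10). Igfbp5 differed from them: its 372 and 436 CPM came from 13 cells, and 3 of these held 70.9% of its UMIs.

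Other receptors for islet hormones were at or near 0 UMIs. Gipr, for the incretin GIP, and Gcgr, for glucagon, had 0 UMIs in the 60 cells, against 61.9 to 289 and 1.28 to 87.0 CPM in endocrine sums. Glp1r had 6.00 and 6.92 CPM against 7.50 to 1109.8. The somatostatin receptor Sstr3 had 6.00 and 0 CPM against 123 to 246, and all 4 genes were called lower. The call of Gcgr was lost with equal numbers of cells in each sum (adjusted p = 1 by edgeR). Sstr2 had 0 UMIs against 0 to 13.3 CPM and was not called. The listed exception beside Insr was Calcrl, a receptor for adrenomedullin and for peptides of the calcitonin family, at 242 and 286 CPM against 0 to 3.15 in 58 cells.

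Calcrl stood with its accessory proteins. Ramp2 was at 226 and 258 CPM against 1.60 to 8.77, and Ramp3 at 412 and 247 CPM against 0 to 3.61. Of the 22 vasoactive genes, 15 passed the filter, with a median of 3.66 over endocrine sums. Of these, 13 were higher than in endocrine and 12 higher than in leukocyte sums, beside 23.4% and 19.5% of all genes. Ednrb, an endothelin receptor, was at 1000.1 and 796 CPM against 0 to 5.16 (log2 fold change 9.15 ± 0.23 SE, edgeR adjusted p = 7.21e-14). Ace, the angiotensin-converting enzyme, was at 380.1 and 382 CPM against 0 to 3.61, and Bdkrb2, a bradykinin receptor, was at 104 and 142 CPM against 0 to 2.58. Nos3, the endothelial nitric oxide synthase, was at 90 and 61.1 CPM against 0.242 to 1.69, in 43 cells. Ptgs2 had 0 UMIs in endothelial cells, and 9.49 and 68.5 CPM in leukocyte sums, where it was called lower.

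Fatty acid genes were mixed, with 11 higher, 4 lower and 3 without a call of 18 tested against endocrine sums. Over all genes 23.4% were higher and 29.3% lower, a share that the 4 lower genes do not exceed. Gpihbp1, which holds lipoprotein lipase on the capillary wall, was at 558 and 452 CPM against 0 to 5.16 in 49 cells (log2 fold change 8.69 ± 0.23 SE, edgeR adjusted p = 3.08e-13). Its enzyme Lpl was at 14.0 and 8.07 CPM in endothelial sums, and at 8.39 to 967 CPM in endocrine sums, and was called lower (-4.48 ± 0.56, edgeR adjusted p = 4.98e-06). Fabp4, a fatty acid carrier, was at 1400.2 and 745 CPM against 0.295 to 3.19 in 47 cells. The fatty acid receptor Cd36, at 60 and 4.61 CPM, was seen in 4 cells, and it was not called without the endothelial sum of library 1 (adjusted p = 0.733 by edgeR). Scarb1, a lipoprotein receptor, was at 380.1 and 324 CPM against 9.44 to 37.2.

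Genes of BMP and TGF-beta signalling were higher in 16 of 19 tested against endocrine sums (median 2.17), beside 23.4% of all genes. Acvrl1, the endothelial receptor for circulating BMPs, was at 426 and 336 CPM against 0 to 4.13, and Bmpr2 at 752 and 706 CPM against 33.0 to 49.0 (log2 fold change 4.08 ± 0.09 SE, edgeR adjusted p = 3.32e-14). The co-receptor Eng was at 600.1 and 645 CPM against 0 to 8.71. Targets of the pathway were high too, with Id1 at 226 and 376 CPM against 0 to 8.52 and Id3 at 774 and 751 CPM against 0 to 40.7. Bmpr1a was lower, at 10 and 3.46 CPM against 58.1 to 91.7.

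Among secreted factors, 18 of 22 tested were higher and 3 lower than in endocrine sums, beside 23.4% and 29.3% of all genes. Kitl, the ligand of the receptor KIT, was at 284 and 279 CPM against 0 to 5.08 in 59 cells, and at least 143-fold above the leukocyte sums. Thbs1, an inhibitor of vessel growth, was at 568 and 520.2 CPM against 0 to 9.80. Gas6, a ligand of TAM receptors, was at 464 and 301 CPM against 0.965 to 12.2, and Pdgfb, which recruits pericytes, was at 224 and 173 CPM against 0.426 to 7.22. Hgf and Nrg1 had 0 UMIs in the 60 cells and were called lower, though without the endothelial sum of library 2 neither was (adjusted p = 0.132 and 0.182 by edgeR), nor was Nrg1 without that of library 1 (0.0743) or Hgf with equal numbers of cells (1), and Pdgfa was at 30 and 11.5 CPM against 53.6 to 144.

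All 22 haemostasis and adhesion genes tested were higher than in endocrine sums, and 16 were higher and 3 lower than in leukocyte sums. Here too genes could pass the filter through the endothelial sums alone. Thbd, the thrombin receptor that starts the anticoagulant protein C pathway, was at 434 and 348 CPM against 0 to 7.74 (log2 fold change 7.35 ± 0.30 SE, edgeR adjusted p = 6.92e-12). Plat, the plasminogen activator, was at 146 and 165 CPM against 0 to 9.58. Entpd1, which degrades extracellular ATP, was at 160.0 and 143 CPM against 0 to 4.42. Ly6c1 and Ly6a, surface antigens of capillary endothelium, were at 1850.2 and 991 CPM and at 1868 and 1120.1 CPM, and both belong to a family of similar copies among which reads can be split.

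Transcription factors known to mark the vessels of particular organs were higher in 19 of 22 tested against endocrine sums and in 19 against leukocyte sums. Nkx2-3, known from vessels of gut and spleen, was at 384 and 308 CPM against 0 to 5.16 in 46 cells (log2 fold change 9.26 ± 0.31 SE, edgeR adjusted p = 2.8e-12), and at least 171-fold above the leukocyte sums. Gata2 was at 210.0 and 205 CPM against 0 to 1.5 in 57 cells. Hlx was at 288 and 262 CPM against 0 to 3.15, and Foxf1 at 84.0 and 58.8 CPM against 0 to 3.10. Meis2 was high in both kinds of cell, at 866 and 762 CPM against 272 to 574 in endocrine sums (1.11 ± 0.10, edgeR adjusted p = 1.73e-07). Gata6, at 0 and 2.31 CPM against 41.4 to 127, and Meis1, at 14.0 and 4.61 CPM against 41.9 to 70.3, were lower.

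Transport genes included some known from the blood-brain barrier. Of 17 tested, 11 were higher and 5 lower than in endocrine sums, beside 23.4% and 29.3% of all genes. The count of lower genes is near that share. Slc9a3r2, a scaffold protein of the apical membrane, was at 1678 and 1366 CPM against 11 to 26.8 in all 60 cells. Car4, a carbonic anhydrase of capillary lumens, was at 290.0 and 191 CPM against 0 to 2.06 in 39 cells. The glucose transporter Slc2a1 was at 138 and 109.6 CPM against 5.11 to 11.9, but was seen in 23 cells, and 3 of these held 72.0% of its UMIs. The transferrin receptor Tfrc was lower, at 6.00 and 6.92 CPM against 28.4 to 57.6.

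Antigen presentation differed between class I and class II. Of 31 genes of the MHC and interferon list, 27 were higher than in endocrine sums (median 2.44), and against leukocytes 13 were higher and 10 lower (median -0.03). B2m, the light chain of class I, was at 2342 and 3274 CPM against 26.1 to 73.8 in endocrine and 1419 and 1793 in leukocyte sums (log2 fold change over endocrine 6.04 ± 0.20 SE, edgeR adjusted p = 9.42e-13). Class I genes are similar in sequence, so counts of H2-K1 and H2-D1 may be split between copies. The class II gene H2-Ab1 was at 30 and 102 CPM, inside the endocrine range of 8.39 to 137 and far under the 5166 and 6651 CPM of leukocytes. Cd74, the class II invariant chain, was at 6.00 and 217 CPM in 9 cells, of which 3 held 96.9% of its UMIs, and it passed the test against endocrine sums at the threshold (adjusted p = 0.05 by edgeR). It was not called by DESeq2 (adjusted p = 0.260), nor by edgeR with scaling to totals without hormone genes (0.0795), with the library as a block (0.0511) or with hormones below 0.5% (0.0716). Without those 3 cells its fold change was -2.86 on the log2 scale (adjusted p = 0.0623 by edgeR), and without the endothelial sum of library 2 it was -2.73 (0.295).

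Of the shear stress and immediate early genes, 18 of 25 were higher, 3 lower and 4 without a call against endocrine sums. Klf4, induced by flow, was at 730.1 and 697 CPM against 14.0 to 435, and Klf2 at 326 and 437 CPM against 6.53 to 185. Nr4a1 was at 694 and 679 CPM against 26.2 to 94.7. Jun and Fos, which rise during dissociation of tissue, were high in every class, with Jun at 3102 and 2918 CPM in endothelial and 1059 to 3501 in endocrine sums. The heat-shock gene Hsph1 was lower in endothelial sums, at 112 and 117 CPM against 389 to 1717 (-2.96 ± 0.14, edgeR adjusted p = 2.96e-11). The part of dissociation in these levels was not tested.

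Of 21 cell cycle genes, 4 were higher than in endocrine sums, where 23.4% of all genes were, so their count is near that share. Against leukocyte sums 17 were lower, where 18.1% of all genes were. The higher genes were Pcna, Mcm3, Mcm6 and Tyms, all used in DNA synthesis or repair, with Pcna at 162 and 134 CPM against 19.5 to 53.1. Mki67 was at 40.0 and 2.31 CPM in 3 cells. A single cell of library 1 held 20 Mki67 and 15 Top2a UMIs.

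Markers of other cells were looked for in the same 60 cells. The mural list summed to 270.0 and 140 CPM in endothelial and 4.83 to 29.0 in endocrine sums, and 50 of the 60 cells had none of its UMIs. A pair of cells, 1 in each library, held most of it, with 88 and 58 UMIs of the pericyte gene Rgs5, 5 and 3 of Pdgfrb and 2 each of Notch3, beside 78 Esm1 UMIs each. Acinar, fibroblast and Schwann cell markers reached at most 4, 3 and 2 UMIs in any endothelial cell. The leukocyte markers that the rule did not use summed to 4 and 80.7 CPM, against 60.7 to 207 in endocrine and 19387 and 5397 in leukocyte sums, and of 13 tested against endocrine sums 1 was higher, 1 lower and 11 were not called. Of the rule genes, Ptprc was at 2.00 and 9.23 CPM, and Lcp1 at 60 and 165 CPM against 1168 and 1208 in leukocyte sums.

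Markers of lymphatic endothelium summed to 414 and 3464 CPM in endothelial sums, 126 to 269 in endocrine and 243 and 412 in leukocyte sums. Of 6 tested against endocrine sums 4 were higher and 2 lower, and Pdpn and Reln had 0 UMIs. Flt4 made up most of the list in library 1, at 350.0 CPM, and Ccl21a in library 2, at 3066 CPM against 0 in library 1. Prox1, the transcription factor of lymphatic identity, was lower than in endocrine sums, at 14.0 and 5.77 CPM. The 3 cells with most of the list held 1322, 964 and 413 UMIs of it, and the 3 Glycam1 cells described below held 1310, 936 and 409 UMIs of Ccl21a.

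Red blood cell genes came almost wholly from 2 cells, with 744 and 326 Hbb-bs UMIs. The part of these cells in the results was not tested, and the largest genes in question, Rgs5 and the globins, are not used elsewhere.

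Genes differed in how many endothelial cells held them. Of 1912 genes whose mean over both sums reached 100 CPM, 224 were seen in all 60 cells, 891 in at least 90% and 31 in under 50% of them. In 51 genes 3 cells held over 50% of the UMIs. Between libraries 1 and 2, 119 of 2234 genes with at least 100 CPM in either sum differed by more than 2-fold, which is 5.33%, and 86 of these were higher in library 2. Without the 3 Glycam1 cells described next, 45 of 2211 genes did (2.04%). Library 2 also stood apart in depth, since those 3 were its deepest endothelial cells and held 29.1% of its endothelial UMIs.

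Sorted by Esm1, the 60 cells fell into 55 with 30 to 483 UMIs of it and 5 with at most 3. These groups were drawn after the values were seen and are described with no test. Of the 55 cells, 25 were in library 1 and 30 in library 2, and every one had at least 15 Plvap and 80 Flt1 UMIs.

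Of the 5 cells with little Esm1, 3 were in library 2 and carried Glycam1, a mucin-like ligand of L-selectin known from the high endothelial venules of lymph nodes. They held 40437, 73437 and 120643 UMIs in all, and 4125, 10254 and 11442 of Glycam1, while at most 1 Glycam1 UMI was seen in any other endothelial cell. In the same order they held 409, 936 and 1310 UMIs of Ccl21a, a chemokine that attracts lymphocytes, and 91, 0 and 320 of Madcam1, an addressin. Ubd, a ubiquitin-like gene induced by inflammation, had 264, 401 and 766 UMIs, and Lrg1 had 121, 214 and 461. Endothelial genes were present, with 95, 104 and 304 UMIs of Pecam1 and 44, 63 and 240 of Plvap. Genes common in the other cells were scarce, with 0 UMIs of Gpihbp1, 0, 2 and 0 of Igfbp3 and 1, 0 and 5 of Podxl. Leukocyte genes of the rule had 7, 64 and 61 UMIs, of which Lcp1 made up 7, 34 and 59. Ptprc had 0, 8 and 0 UMIs, and Cd52, Cd3e and Ms4a1 were seen in the second cell alone, with 7, 5 and 3 UMIs. The part of leukocyte RNA in these cells was not tested. They had 7224, 9000 and 9773 genes, where the median of the endothelial cells of library 2 was 4647. Whether each of these barcodes held a single cell, and from which tissue it came, was not tested.

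These 3 cells set several values of library 2. Glycam1 was at 29790.2 CPM with them and 6.44 CPM without, against 2.00 CPM in library 1. Without them its change over endocrine cells was -0.62 on the log2 scale with no call (adjusted p = 0.824 by edgeR). The endocrine and leukocyte sums had 10.1 to 15.6 CPM of Glycam1 in library 2 and 0 to 1.03 CPM in library 1. The source of those transcripts was not tested. Lrg1 fell from 919 to 1.61 CPM and Enpp2, the autotaxin gene, from 960 to 33.8 CPM. In library 2, B2m was at 3274 CPM with and 2256 CPM without them, against 2342 CPM in library 1. H2-K1 was at 3066 CPM with and 1577 CPM without them, against 1658 CPM in library 1. Over all genes, 7513 were called against endocrine sums without these cells, of which 7044 were among the 7858 and in the same direction. A further 10 genes were called in both fits with opposite directions, and 2 were against leukocyte sums.

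The other 2 cells with little Esm1 were in library 1 and differed from each other. The first, with 20032 UMIs, held 138 of Aqp1, a water channel, 31 of Vwf, 13 of Bmx, 24 of Sema3g, 51 of Slc2a1 and 21 of Cldn5, and only 5 of Plvap beside 97 of Flt1. The genes Bmx and Sema3g are known from arteries. The second, with 20658 UMIs, held 29 of Aqp1, 165 of Fabp4, 28 of Car4, 29 of Cd36 and 27 of Gpihbp1, with 87 of Plvap. Aqp1 was at 0 in all 55 cells with high Esm1. The first Glycam1 cell held 41 Aqp1 UMIs and the third 147.

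**Figure D4:**
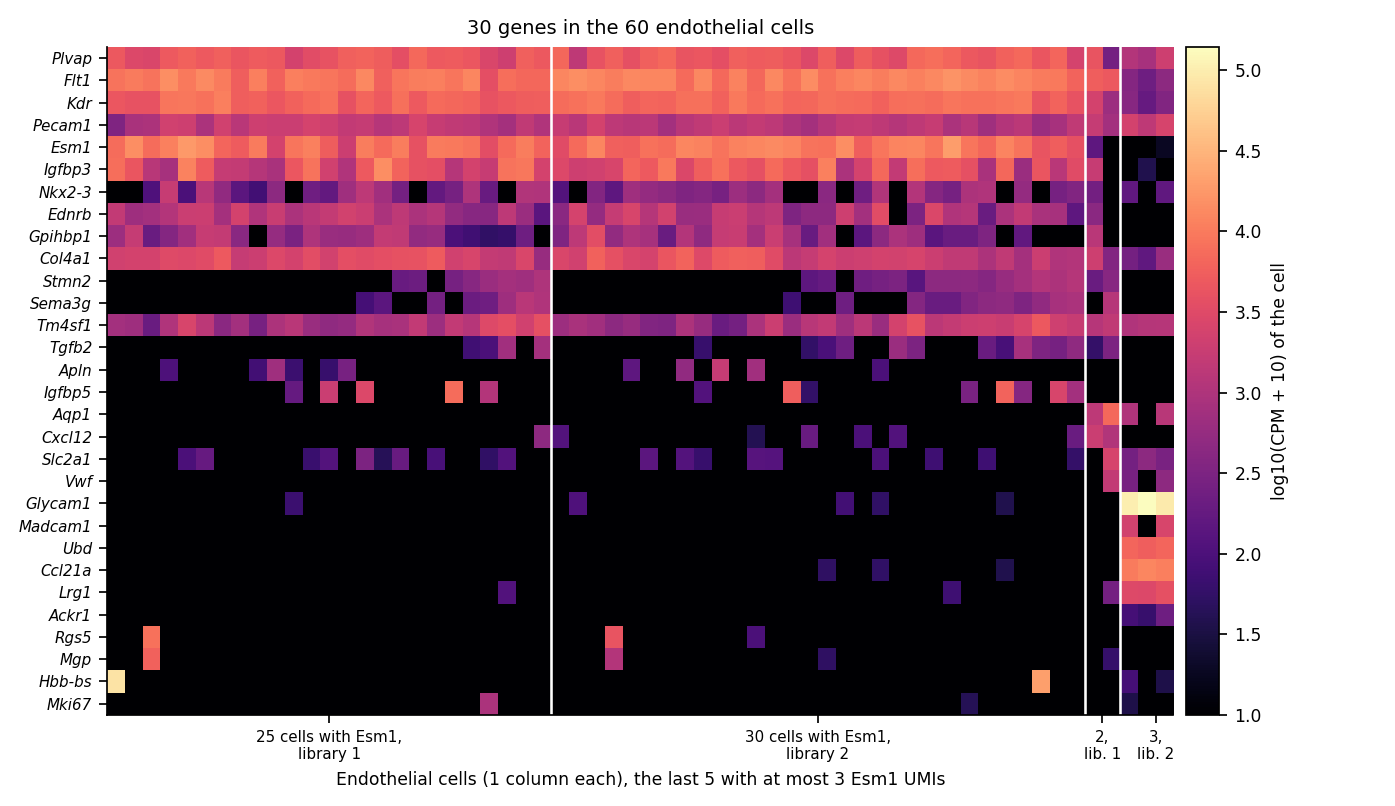
Levels of 30 genes (rows) in the 60 endothelial cells (columns), coloured by log10 of CPM of the cell with 10 added, with white lines between the 25 cells of library 1 and 30 of library 2 with high Esm1, 2 further cells of library 1 and 3 of library 2. Esm1 fills the first 55 columns, Glycam1, Ubd and Ccl21a fill the last 3, and Aqp1 is seen in 4 of the last 5.

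Among the 55 cells with high Esm1 a graded difference ran between genes related to Stmn2, a regulator of microtubules, and genes related to Gpihbp1. Genes were ranked by Pearson's r with Stmn2 over log2 of UMIs per 10000 plus 1, for 8098 genes seen in at least 10 of the 55 cells. The r values are a description over cells that share 2 libraries. The gene most like Stmn2 was Sema3g, an arterial semaphorin (r = 0.78, with 0.77 and 0.79 within libraries 1 and 2 and 0.65 after thinning). It was followed by Tm4sf1 (0.73), Nectin3, an adhesion molecule (0.70), Mal, a membrane-raft protein (0.69), and Tgfb2, a growth factor (0.67). Over all 55 cells the lowest values were those of Gpihbp1 (-0.67, with -0.63 and -0.70 within libraries and -0.46 after thinning), Col4a1 (-0.66) and Chst2, a sulfotransferase (-0.63). Their order changed with the cells used, since Chst2 was lower than Gpihbp1 in library 1 (-0.77) and after thinning (-0.56), and Col4a1 was lower in library 2 (-0.74). Esm1 had an r of -0.16 and Plvap of 0.01.

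Counts of cells describe the same relations in the same cells. The genes given were picked by their r with Stmn2, so the counts add no separate support. Stmn2 was seen in 23 and Sema3g in 20 of the 55 cells, with both in 15 (5 in library 1 and 10 in library 2), one of them in 13 and neither in 27 (14 and 13). Median depths of the 3 groups were 15753, 15949 and 14738 UMIs. Col4a1 had a median of 1498 UMIs in CPM (586 to 2688) in cells with both and 3065 (1702 to 6266) in cells with neither. Gpihbp1 had a median of 66.7 (0 to 669) in cells with both and 721 (0 to 3596) in cells with neither. Tm4sf1 ran the other way, with 2062 (1200.2 to 4783) and 652 (192 to 2615). In all 3 genes the ranges overlapped, and the cells with one of the pair had medians in between, at 2379, 580.2 and 1067 CPM.

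Genes of the arterial list were split in their relation to Stmn2. Hey1 (r = 0.58), Sox17 (0.55), Efnb2 (0.51) and Gja4 (0.41) had positive values, while Dll4 (-0.15) and Unc5b (-0.33) had negative ones. Efnb2 had a median of 1101 CPM (304 to 1594) in cells with both genes and 329 (0 to 811) in cells with neither, and Unc5b had 77.8 (0 to 517) and 210.4 (0 to 898). Tgfb2 was seen in 11 of 15 cells with both and 1 of 27 with neither, and Mal in 12 of 15 and 3 of 27. Esm1, at medians of 8668 and 8583 CPM, and Plvap, at 4752 and 4825, were alike in both kinds of cell. The groups were defined by Stmn2 and Sema3g after their relation was seen, so these values are a description.

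**Figure D5:**
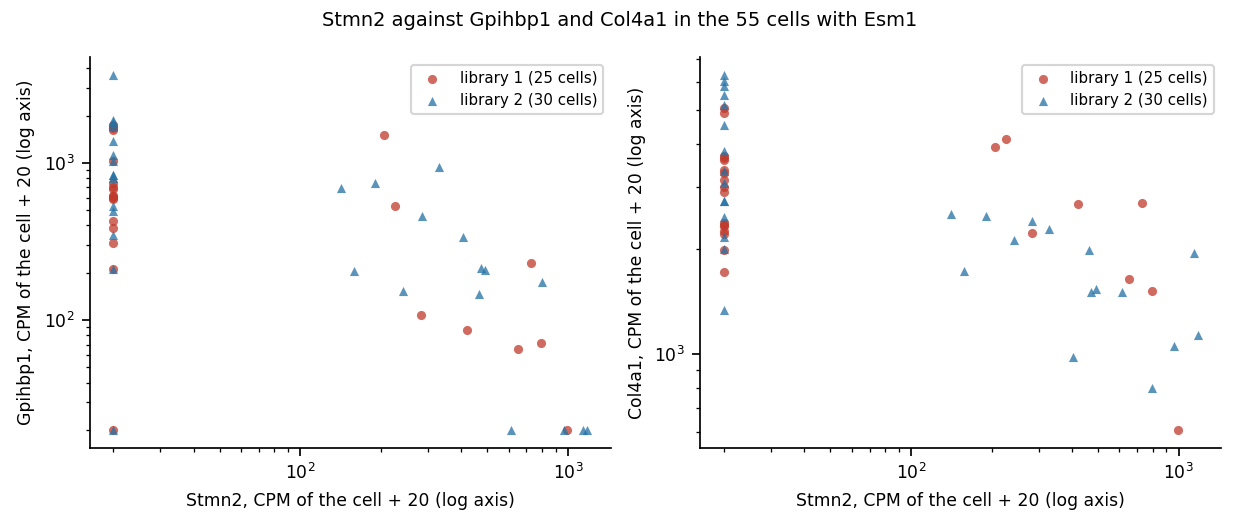
Stmn2 (horizontal axes) against Gpihbp1 (left) and Col4a1 (right) in CPM of the cell plus 20, on log axes, with 1 point for each of the 55 endothelial cells with high Esm1 (25 of library 1 as circles, 30 of library 2 as triangles). Cells with much Stmn2 tend to lie lower on both vertical axes in either library, with overlapping values (r = -0.67 for Gpihbp1 and -0.66 for Col4a1). The cells without a Stmn2 UMI form the column at the left edge of each panel.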

How the data were processed

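The deposited files were count tables of 1 library each, in which the authors gave whole-number UMI counts per gene and cell barcode. Per the labels and methods, the authors' Cytonaut software used UMI-tools to find barcodes above a knee in depth, aligned reads to exons on GRCm38 and counted deduplicated transcripts, so intronic reads are absent. Whether genes on opposite strands were told apart is not given in the sources used here, and reads of overlapping genes, such as Col4a1 and Col4a2, may be shared. Genes listed in either table were joined (30135 and 30632, 33038 in either), with 0 where a gene had no row, and 32971 (99.8%) were found in GENCODE annotation on GRCm38. Promoters were RefSeq entries.

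Counts were summed per class and library and compared in R 4.3.3 by the quasi-likelihood test of edgeR 4.0.16 (functions glmQLFit and glmQLFTest) after filterByExpr and TMM scaling, with Benjamini-Hochberg adjusted p over 14933 genes and a threshold of 0.05. The 12 sums entered 1 fit, in which the spread was estimated for each gene. Its common value over genes was a coefficient of variation of 12.8%. The alternatives used DESeq2 1.42.0, other scalings, filters and selections. Single cells were handled in Python 3.11.15 with numpy 2.4.6, pandas 2.3.3 and scipy 1.17.1, and figures drawn with matplotlib 3.10.9. The scripts were tested on simulated data. Intervals and floors cover counting error only.

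Named genes were the 10 called genes with the largest change in each contrast and direction given, among those with a mean of at least 100 CPM and the same direction in both libraries, and 2 to 6 members of each list, taken from its highest levels and its exceptions. Plvap, Flt1 and the other genes of the rule, the Glycam1 cells and the Stmn2 groups are descriptions. The members and gene lists were chosen with earlier results of these data known. Sums with the same library number come from the same library. Deviations of endothelial sums correlated with those of other classes at -0.00899 to 0.0525, under 0.1, and the main fit has no library term. Such correlations over all genes do not exclude effects of a library on single genes.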

Additional observations from a re-analysis of the deposited data

How the results depend on the processing

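The share of endothelial cells stayed within 3.84% to 4.18% under the other minimums, hormone limits, no leukocyte condition or no Glycam1 cells, and was 3.67% to 4.41% with 1 library left out. Against endocrine sums 7513 (without the Glycam1 cells) to 8265 genes were called under the other tools, scalings, filters and selections, and 5431 to 5790 against leukocyte sums, beside 7858 and 5620. Equal numbers of cells, 27 in each sum, gave 5201 calls against endocrine sums (2824 higher, 2377 lower) and 3921 against leukocyte sums among 10781 genes tested, so that fewer genes entered. Leaving out 1 endothelial sum, with the lone sum assumed to vary like the other classes, gave 5331 to 6792 calls against endocrine and 4252 to 4762 against leukocyte sums. That setting and the one without the 3 Glycam1 cells were chosen after seeing the data. With a whole library left out, 1 sum per class leaves no residual degrees of freedom and only medians were computed.

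With the library as a replicate block, 7708 and 5477 genes were called. This fit takes account of the library that sums share. It is given as a check, and it changed the direction of no call.

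The medians that turned sign were all near 0 or rested on few genes. Without library 1 and without library 2 respectively, the MHC and interferon list against leukocytes came to 0.36 and -0.15, the mural markers against leukocytes to -1.26 and 0.85, the ductal markers against leukocytes to 0.13 and -0.092, and the leukocyte markers against endocrine sums to 0.020 and -0.25. Against endocrine sums Cd74 came to -2.86 and Glycam1 to -0.62 without the 3 Glycam1 cells. Without the endothelial sum of library 1 and of library 2 respectively, Cd74 came to 2.46 and -2.73, Glycam1 to 12.07 and -1.78, and Madcam1 to 11.59 and -1.67. Of the other values computed for single genes, 4463 kept their side of the threshold and direction, 39 gained and 46 lost the call. The cause was not tested beyond these settings. With 60 cells, a gene at 0 UMIs may still lie under the limit of 3 UMIs over both sums, which is 2.19 CPM.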
